A study of Mus musculus with 4 samples.

Results

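The 9 metalloproteinase and inhibitor genes described here were chosen by name from the 27998 genes of the deposited count table. Earlier results of these data were known when they were chosen. They were 6 matrix metalloproteinases (Mmp8, Mmp9, Mmp12, Mmp14, Mmp19 and Mmp25), the tissue inhibitors of metalloproteinases Timp1 and Timp2, and the membrane-anchored protease Adam8. The study profiled flow-sorted CD11b+ splenocytes of C57BL/6 mice by CITE-seq, in which the RNA of single cells is counted together with antibodies that carry DNA tags. One library came from untreated mice in steady state (4827 cells) and 1 from mice that received GM-CSF (10 µg, once a day for 3 days), with cells taken 24 h after the last dose (6804 cells). How many animals were pooled for each library is not given in the labels. Their age is given only in the methods of the study, as a range for all mice. The cell types, clusters and CD115hi subsets are those deposited with the cells. The types MoMacDC_c1, MoMacDC_c2, MoMacDC_c4, MoMacDC_c5 and progenitor dendritic cells (DCs) had been clustered again as a bundle of 6075 cells, called the MoMacDC bundle here. Cells deposited as macrophages, activated DCs or cDC2-A lie outside it. Within the bundle the CD115hi cells were gated on tag counts into Ly6C+ classical monocytes (P-I), Ly6C-MHC II- cells (P-II), Ly6C-MHC II+CD301b- cells (P-III) and Ly6C-MHC II+CD301b+ GM-CSF-induced DCs (P-IV).

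Matrix metalloproteinases are zinc-dependent enzymes that cut proteins of the extracellular matrix as well as cytokines, chemokines and their receptors. Most are made as inactive precursors, and the tissue inhibitors block the active enzymes in a tight complex. Mature neutrophils carry the collagenase MMP8 and the gelatinase MMP9 in their specific and gelatinase granules, whose contents are transcribed in the bone marrow while the cells mature, and MMP25 is a membrane-anchored neutrophil protease. MMP12 is the macrophage elastase, MMP14 is a membrane-anchored enzyme that activates pro-MMP2 together with TIMP2, and ADAM8 sheds surface proteins of leukocytes.

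On mouse build GRCm38 the 9 protein-coding genes lie on 8 chromosomes. Mmp8 (chr9:7558456-7568485, plus strand) and Mmp12 (chr9:7344381-7369499, plus strand) belong to the same run of Mmp genes. They are separated by 188956 bases and 3 other Mmp genes, which had 0 UMIs in all cells. Mmp12 also overlaps Mmp1b on the opposite strand by 1261 bases, and Mmp1b had 0 UMIs. Mmp9 lies at chr2:164940780-164955850 and Mmp14 at chr14:54431612-54445364, both on the plus strand. Mmp19 lies at chr10:128790910-128800824 on the plus strand and overlaps Tmem198b on the opposite strand by 789 bases. Mmp25 lies at chr17:23628311-23645277, Timp2 at chr11:118301069-118355740 and Adam8 at chr7:139978932-139992562, all on the minus strand. Timp1 (chrX:20870166-20874735, plus strand) lies inside Syn1, which is on the opposite strand. Whether the counting used strand is not given in the sources used here, so UMIs of these overlapping pairs may not be separable.

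The promoters of Mmp8, Mmp12 and Adam8 are shown because most of the results turn on these genes. Each window runs from 250 bases before to 50 bases after a RefSeq start on GRCm38.p6, 5′ to 3′ on the strand of the gene. RefSeq windows were found for 7 of the 9 genes, with 2 for Mmp12. Capitals mark matches, on either strand, to the letters of a C/EBP motif (TTGCNNAA), a PU.1 motif (GAGGAAGT) or an AP-1 motif (TGANTCA).
Mmp8, chr9:7558179-7558478, plus strand: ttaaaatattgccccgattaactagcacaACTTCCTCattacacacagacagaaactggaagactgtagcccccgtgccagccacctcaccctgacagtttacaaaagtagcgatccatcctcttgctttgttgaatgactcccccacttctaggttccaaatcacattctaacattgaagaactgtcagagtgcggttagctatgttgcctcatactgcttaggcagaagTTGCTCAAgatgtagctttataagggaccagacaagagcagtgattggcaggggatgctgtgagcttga
Mmp12, chr9:7344147-7344446, plus strand: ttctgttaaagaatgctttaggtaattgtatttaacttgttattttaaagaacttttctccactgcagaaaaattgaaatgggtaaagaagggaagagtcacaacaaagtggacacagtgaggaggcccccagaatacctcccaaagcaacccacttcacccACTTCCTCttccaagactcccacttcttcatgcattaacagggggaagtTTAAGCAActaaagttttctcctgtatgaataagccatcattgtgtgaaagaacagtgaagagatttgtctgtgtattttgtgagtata
Mmp12, chr9:7347124-7347423, plus strand: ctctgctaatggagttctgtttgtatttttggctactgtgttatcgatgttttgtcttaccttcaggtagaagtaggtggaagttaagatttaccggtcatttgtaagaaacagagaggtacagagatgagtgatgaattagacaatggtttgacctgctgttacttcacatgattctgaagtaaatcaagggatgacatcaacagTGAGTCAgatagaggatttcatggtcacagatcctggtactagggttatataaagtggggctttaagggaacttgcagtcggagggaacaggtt
Adam8, chr7:139992513-139992812, minus strand: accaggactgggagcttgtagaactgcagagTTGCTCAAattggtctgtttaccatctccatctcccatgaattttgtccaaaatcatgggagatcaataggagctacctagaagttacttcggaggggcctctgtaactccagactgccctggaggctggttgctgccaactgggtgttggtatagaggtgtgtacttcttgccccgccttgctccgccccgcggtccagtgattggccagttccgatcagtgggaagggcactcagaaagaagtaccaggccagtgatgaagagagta
C/EBP, PU.1 and AP-1 are families of factors known from the transcription of myeloid genes. The Mmp8 window and the first Mmp12 window each held 1 C/EBP and 1 PU.1 match, the second Mmp12 window held 1 AP-1 match and the Adam8 window 1 C/EBP match. Among 32851 RefSeq promoter windows of the same length, 10.8% held the C/EBP letters, 3.2% the PU.1 letters and 7.81% the AP-1 letters. The letters of a STAT5 motif (TTCNNNGAA), present in 8.30% of all windows, were in none of the 8 windows of these genes. A match of letters is a description and does not show binding.

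Levels are given as CPM, the UMI sum of a gene over all cells of a group, scaled to a group total of 1000000 UMIs, with the share of cells that had a UMI. The libraries held 22358903 and 35007567 UMIs, with medians of 3371 and 4916 UMIs per cell, and 8 cell barcodes were found in both. With 1 library per condition there was no replicate and no test between conditions was possible. Intervals in parentheses are 95% intervals that cover counting error only. A gene was counted as apart when its CPM ratio was at least 2 or at most 0.5, among genes with at least 50 UMIs over both groups. Cell types and clusters had been built by the authors from the same RNA, so differences between them are descriptions, whereas the subsets P-I to P-IV were gated on tags. In bulk sums like these, fewer expressing cells and less RNA per cell cannot be told apart from the CPM alone. Bundle clusters 11, 14 and 15 carried neutrophil genes, with a summed CPM of 9 neutrophil markers of 154029 and 149097 in cluster 15, and Scrublet called 54.1% and 89.6% of the cells of cluster 11 doublets, so whole-bundle values of Mmp8, Mmp9 and Adam8 are given with and without these clusters. B cells and T cells, which should lack Mmp8 and Mmp9, had 68.5 and 56.4 CPM of Mmp9 and 29.7 and 13.8 CPM of Mmp8 in steady state. After GM-CSF these levels were 12 and 10.3 CPM for Mmp9, and 3.98 and 0 CPM for Mmp8.

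The 9 genes fell into separate cell types. Neutrophils and granulocytes together held 79.3% and 93.4% of the Mmp8 UMIs of the steady-state and GM-CSF libraries, 90.6% and 94.7% of the Mmp9 UMIs, and 88.2% and 89.4% of the Mmp25 UMIs. The bundle held 96.7% and 99.4% of the Mmp12 UMIs, 99.3% and 88.7% of the Mmp19 UMIs, and 79.6% and 81.0% of the Mmp14 UMIs. Timp2 was spread over both, with 53.9% and 52.3% of its UMIs in neutrophils and granulocytes. Adam8 was the gene whose UMIs were shared out differently in the 2 libraries: neutrophils and granulocytes held 80.3% of them in steady state and 38.0% after GM-CSF, and the bundle 16.9% and 60.8%. These shares depend also on how many cells of each type were captured, since the neutrophil label covered 146 and 893 cells, and the bundle 2135 and 3940. Depth of detection differed between the genes, from 27739 UMIs of Mmp9 to 75 of Mmp14 and 10 of Timp1 in all cells.

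**Figure D1:**
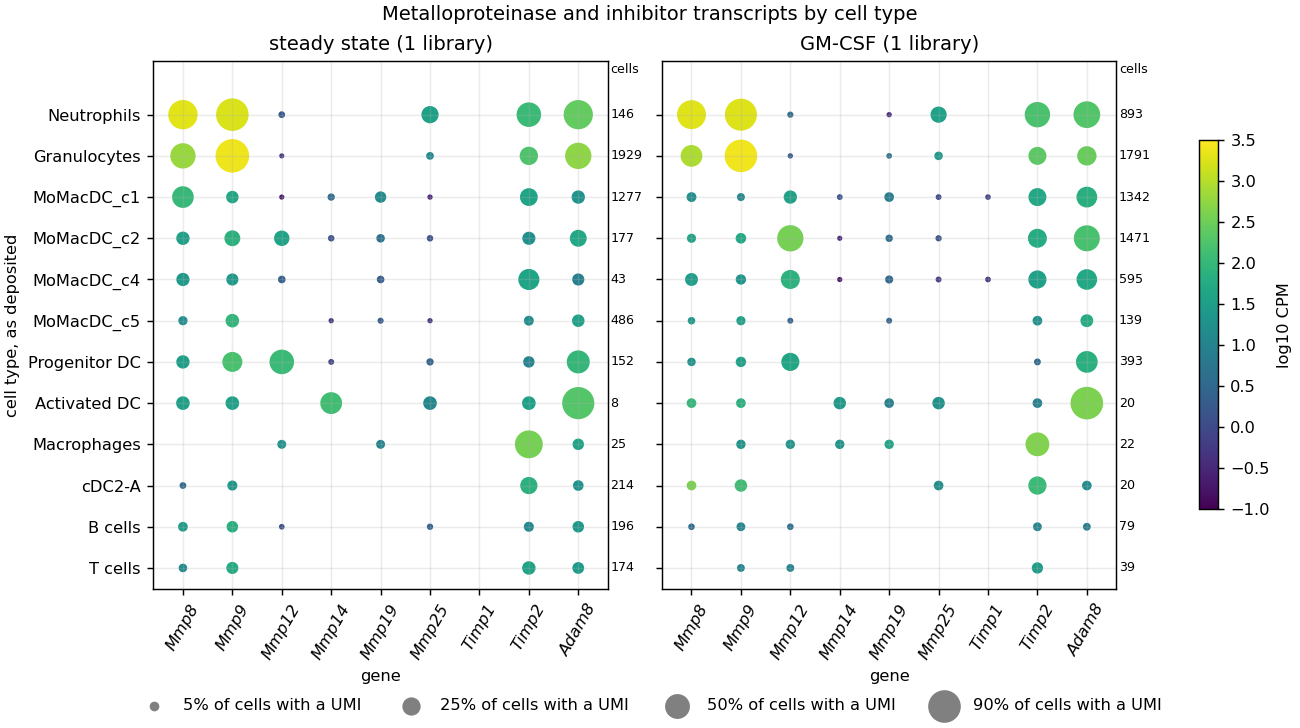
Each gene (horizontal axis) in the 12 deposited cell types (vertical axis) of the steady-state and GM-CSF libraries, with colour for log10 of CPM, point area for the percent of cells with a UMI, no point for 0 UMIs, and the number of cells at the right. Mmp8, Mmp9 and Mmp25 were high in neutrophils and granulocytes, and Mmp12 after GM-CSF was highest in MoMacDC_c2 and MoMacDC_c4, with 358 and 79.5 CPM.

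Mmp8, which encodes neutrophil collagenase, stood at 1982 CPM (1900 to 2068) in neutrophils of the steady-state library and at 1906 CPM (1868 to 1945) in those of the GM-CSF library, a ratio of 0.962 (0.918 to 1.01). Mmp9, which encodes gelatinase B, stood at 1783 and 1824 CPM, a ratio of 1.02 (0.974 to 1.07). Per cell, the median neutrophil had 11 Mmp8 and 12.5 Mmp9 UMIs in steady state and 9 and 10 after GM-CSF. The neutrophil levels of both genes were thus nearly equal in the 2 libraries, while the number of labelled neutrophils differed. Mmp25 in neutrophils was 37.6 CPM (41 UMIs) and 38.5 CPM (190 UMIs), a ratio of 1.02, again nearly equal.

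In the cells labelled granulocytes, which had lower medians of 1770 and 1229 UMIs per cell, the gene pair was balanced differently. Mmp9 was 2388 CPM in steady state and 2508 CPM after GM-CSF (ratio 1.05), and 95.7% and 89.7% of these cells had a Mmp9 UMI. Mmp8 was 651 and 882 CPM (ratio 1.36, 1.28 to 1.44). The share of cells with a Mmp8 UMI was 52.2% and 37.1%, or 37.7% and 38.5% once each cell was thinned to 1000 UMIs. Thinning left out shallower cells, 38 and 578 over all cell types, so the thinned shares cover the deeper granulocytes only. After GM-CSF granulocytes with both genes had a median of 1661 UMIs, those with Mmp9 only 1119 and those with neither 958. Averaged over cells instead of summed, the Mmp8 ratio was 1.1. Mmp25 was 13.3 CPM (49 UMIs) and 26.5 CPM (64 UMIs), a ratio of 1.99 (1.35 to 2.95) that lay just inside the 2-fold limit.

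Mmp8 made up 51.4% (50.7 to 52.0) of the Mmp8 and Mmp9 UMIs of neutrophils and 23.4% (22.8 to 24) of those of granulocytes, a difference of 28.0 percentage points (27.1 to 28.9). The difference had the same direction in each library: 52.6% against 21.4% in steady state and 51.1% against 26.0% after GM-CSF. Both labels carried neutrophil markers, with 9 of 9 markers detected in granulocytes. Their summed level was 349510 and 279004 CPM in neutrophils and 106503 and 103085 CPM in granulocytes, where the specific granule genes Ngp and Camp were low and Cxcr2, Csf3r and Il1b were high.

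Within the neutrophil label the gene pair divided the cells along other genes of neutrophil maturation. After GM-CSF 69.2% of neutrophils had UMIs of both genes, 17.4% of Mmp9 only, 0.336% of Mmp8 only and 13.1% of neither, and in steady state the shares were 71.2%, 18.5%, 0.685% and 9.59%. Cells with neither gene were the deeper ones, with a median of 10116 UMIs against 3782.5 for cells with both. Cells with neither had 586 CPM of the proliferation gene Mki67 and 1656 CPM of Elane, the neutrophil elastase of primary granules, against 47.2 and 0.397 CPM in cells with both. The order turned for genes of later stages: Cxcr2, a chemokine receptor of mature neutrophils, was 24 CPM in cells with neither and 394 CPM in cells with both, and Csf3r, the G-CSF receptor, 65.9 and 396 CPM. The other proteases and the inhibitor followed the pair, with Adam8 at 24 and 303 CPM, Timp2 at 30.2 and 261 CPM, and Mmp25 at 14.7 and 54.8 CPM. Steady-state neutrophils showed the same order, with Mki67 at 870 and 70.8 CPM, Cxcr2 at 24.9 and 540 CPM, Adam8 at 14.9 and 418 CPM, and Timp2 at 9.94 and 183 CPM in cells with neither and with both.

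Mmp8 was also found with little Mmp9 in clusters 5 and 6 of the bundle. In steady state cluster 6 had 207 CPM of Mmp8 (456 UMIs, 66.0% of cells) and cluster 5 had 88.0 CPM (300 UMIs, 38.9% of cells), against 20.2 CPM in cluster 2, ratios to cluster 2 of 10.3 (7.53 to 14.3) and 4.36 (3.17 to 6.13). Mmp9 in the same cells was 4.09 and 2.64 CPM, with 9 UMIs in each cluster, below its level in B cells. Mmp8 therefore made up 98.1% and 97.1% of the gene pair in clusters 6 and 5, against 30.2% in steady-state B cells and 19.6% in T cells. The neutrophil marker sum was 351 and 333 CPM in clusters 6 and 5, close to the 376 CPM of cluster 2, and Ly6g was at 0 in cluster 6.

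After GM-CSF Mmp8 in these clusters was lower. Cluster 6 had 35.9 CPM (31 UMIs, 23.1% of cells), 5.78-fold lower (4.01 to 8.60) than in steady state, and cluster 5 had 11.9 CPM (12 UMIs, 7.09% of cells), 7.39-fold lower (4.17 to 14.5). Thinned to 1000 UMIs per cell, the ratio in cluster 6 was 0.35 in place of 0.173. The neutrophil marker sum was then 3432 CPM in cluster 6 and 215 CPM in cluster 5. In the deposited type MoMacDC_c1 Mmp8 was 105 CPM in steady state (37.0% of cells) and 16.6 CPM after GM-CSF (5.29% of cells), 6.31-fold lower (5.29 to 7.57). Its 5 markers of non-classical monocytes summed to 930 and 226 CPM, so the makeup of the label also differed, and the part of this in its ratios was not tested. Over the whole bundle Mmp8 was 76.8 and 28.5 CPM, a ratio of 0.371, and 66.3 and 8.16 CPM without clusters 11, 14 and 15, a ratio of 0.123. Mmp9 over the bundle was 65.9 and 30.6 CPM (0.465), but without those clusters 9.45 and 6.89 CPM (0.729), which no longer passed the 2-fold limit. Without called doublets, the values were 70.4 and 7.52 CPM for Mmp8 (0.107) and 43.8 and 4.27 CPM for Mmp9 (0.0975). The calls removed unlike shares of the clusters with neutrophil genes. In steady state and after GM-CSF they took 54.1% and 89.6% of cluster 11, 0% and 85.7% of cluster 14, and 57.1% and 97.0% of cluster 15. More of these cells thus stayed in the steady-state values, and their part in the ratios without doublets was not tested. Mmp8 and Mmp9 were lower after GM-CSF in B and T cells too (above), and the part of free RNA in these ratios was not tested.

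**Figure D2:**
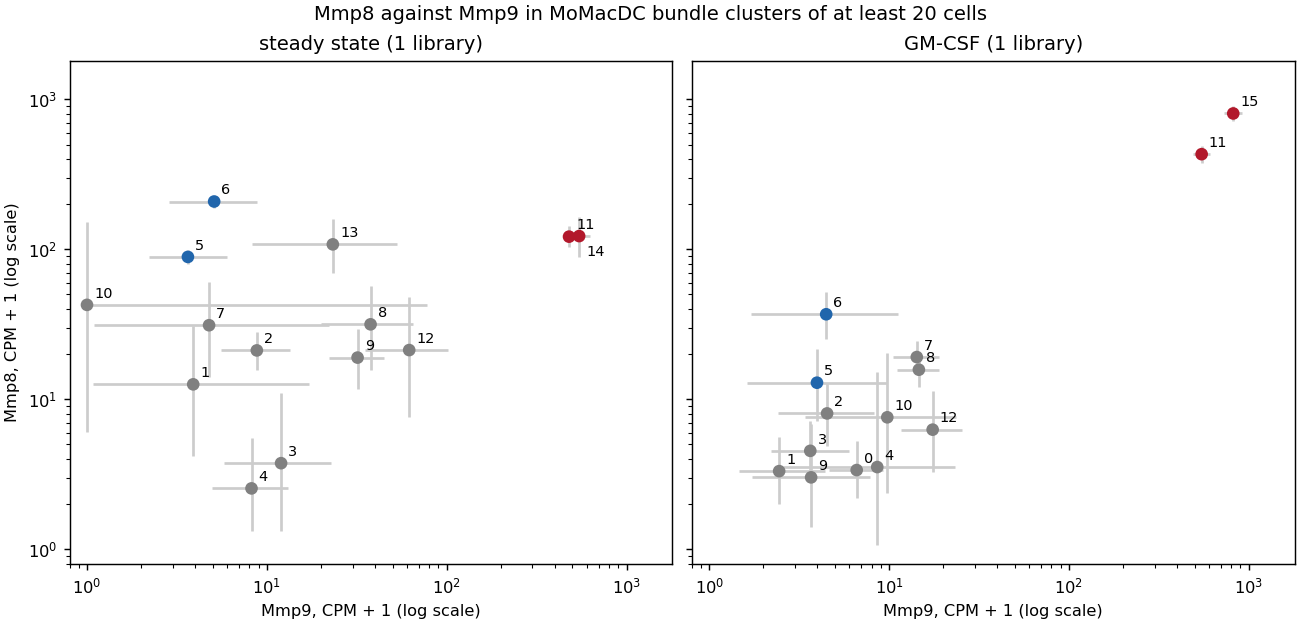
CPM plus 1 of Mmp8 against Mmp9 (both axes log scale) in each bundle cluster of at least 20 cells, with 95% counting intervals, for the steady-state and GM-CSF libraries. Clusters 11, 14 and 15 (red), which carry neutrophil genes, were high for both, and clusters 5 and 6 (blue) had 88.0 and 207 CPM of Mmp8 in steady state beside 2.64 and 4.09 CPM of Mmp9.

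Mmp12, the macrophage elastase gene, was a gene of the bundle. In steady state it had 204 UMIs there, 13.6 CPM, of which 61.8% lay in cluster 9, at 126 CPM, which the authors took as progenitor-like. After GM-CSF it had 4253 UMIs, 157 CPM, 11.5-fold higher (10.0 to 13.3), and 12.4-fold higher without clusters 11, 14 and 15. MoMacDC_c2 carried 78.1% of the UMIs of the GM-CSF library, with 40.1 CPM in steady state (16.9% of cells) and 358 CPM after GM-CSF (56.6% of cells), 8.94-fold higher (6.98 to 11.6). In MoMacDC_c1 the level went from 0.21 CPM (2 UMIs) to 36.7 CPM, a ratio of 175 (48.0 to 1449), and in MoMacDC_c4 from 2.23 CPM (1 UMI) to 79.5 CPM, a ratio of 35.7 (6.38 to 1414). The 43 MoMacDC_c4 cells of the steady-state library carried 6 of 6 markers of natural killer cells, summing to 11788 CPM against 16.6 CPM after GM-CSF, so the label held different cells in the 2 libraries, and the part of this in its ratios was not tested. Progenitor DCs went the other way, with 111 CPM in steady state (48.7% of cells) and 46.6 CPM after GM-CSF (24.7% of cells), a ratio of 0.421 (0.330 to 0.537). Their markers of DC progenitors and conventional DCs summed to 500 and 259 CPM and those of non-classical monocytes to 756 and 104 CPM, whose part in this ratio was not tested. Neutrophils and granulocytes had 22 Mmp12 UMIs in the GM-CSF library, 3.44 and 2.07 CPM, and B and T cells had 1 UMI each. The 25 and 22 cells labelled macrophages, in which macrophage markers summed to 15423 and 14815 CPM, had 2 UMIs and 1 UMI of Mmp12. These low counts reflect the few cells and do not give a level that can be set beside the other types.

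Along the tag-gated subsets of the GM-CSF library Mmp12 was lowest in P-I and highest in P-IV. P-I (187 cells) had 49 UMIs, 35.1 CPM (26.0 to 46.5), with a UMI in 11.2% of cells. P-III (126 cells) had 138 UMIs, 187 CPM (157 to 220), in 33.3% of cells, and P-IV (313 cells) had 817 UMIs, 363 CPM (339 to 389), in 66.5% of cells. The intervals of the 3 subsets did not overlap. P-III was 5.31-fold above P-I (3.81 to 7.52), P-IV 1.95-fold above P-III (1.62 to 2.35) and P-IV 10.3-fold above P-I (7.75 to 14.1). The medians of 7232, 5866 and 6883 UMIs per cell did not follow this order, and thinned to 1000 UMIs per cell the levels were 49.2, 210 and 367 CPM. In steady state Mmp12 had 0 UMIs in 139 P-I cells, 12 P-III cells and 7 P-IV cells, which allows levels of up to 2.75, 36.9 and 55.3 CPM, below those after GM-CSF. CD115- cells of the bundle had 15.1 and 144 CPM.

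Of P-I, P-III and P-IV, the neutrophil pair was highest in P-I. Mmp8 was 57.4 CPM in P-I (80 UMIs), 4.06 CPM in P-III (3 UMIs) and 0.445 CPM in P-IV (1 UMI), so P-III was 14.1-fold below P-I (4.67 to 70.0) by a count of 3. Mmp9 was 57.4 CPM in P-I (80 UMIs), 2.70 CPM in P-III (2 UMIs) and 5.34 CPM in P-IV (12 UMIs), P-IV being 10.7-fold below P-I (5.83 to 21.7) and P-IV to P-III 1.97 (0.439 to 18.2). These P-I levels rested on few cells: the 12 P-I cells of cluster 11 held 44 of the 80 Mmp8 and 56 of the 80 Mmp9 UMIs, and without clusters 11, 14 and 15 P-I had 13.9 and 8.49 CPM. P-I of the steady-state library, where Mmp12 was at 0, had 76.9 CPM of Mmp8 and 63.1 CPM without those clusters. Neutrophils of the same GM-CSF library had 1906 CPM of Mmp8 and 1824 CPM of Mmp9, beside 3.44 CPM of Mmp12.

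**Figure D3:**
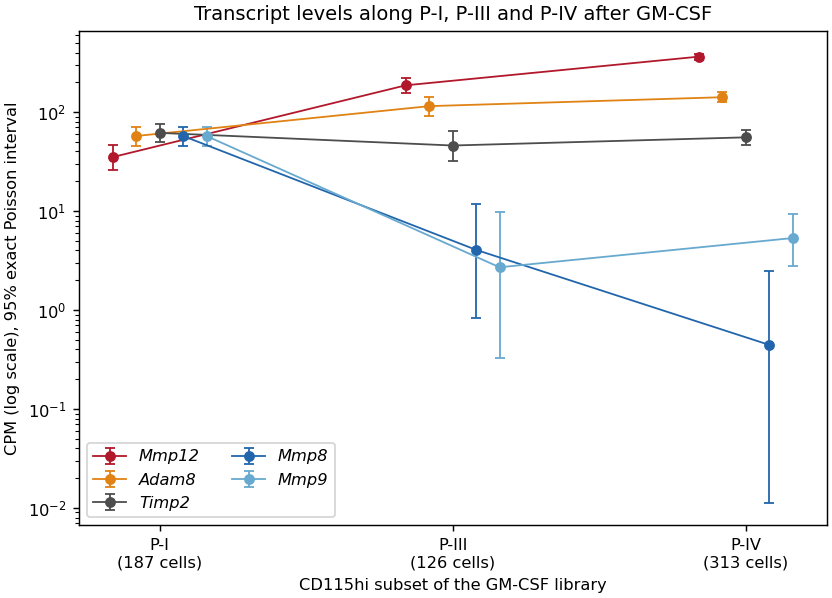
CPM (vertical axis, log scale) of 5 of the genes in CD115hi subsets of the GM-CSF library, with exact Poisson 95% intervals. Mmp12 was 35.1, 187 and 363 CPM from P-I to P-IV, and Mmp8 was 57.4, 4.06 and 0.445 CPM.

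Most of the Mmp12 of P-III and P-IV came from cells of cluster 0. That cluster had 530 CPM in the GM-CSF library (2453 UMIs, 73.8% of cells), 57.7% of the Mmp12 UMIs of the bundle, and was nearly absent in steady state (14 cells, 9 UMIs, 67.5 CPM). No P-I cell, 20 P-III cells (15.9%) and 167 P-IV cells (53.4%) belonged to it, and they held 64.5% and 75.4% of the Mmp12 UMIs of P-III and P-IV. Within cluster 0 the subset order was not found: P-III had 722 CPM, P-IV 521 CPM and CD115- cells 527 CPM, and without the single highest cell of each the values were 476, 492 and 512 CPM. One P-III cell held 35 of the 138 UMIs of its subset. Without the cycling clusters 7, 8 and 12 the ratio of P-III to P-I was 8.84. Without cluster 0, P-III was 2.26-fold above P-I and P-IV 2.37-fold above P-III. Within cluster 8, whose cells were nearly all assigned to S or G2/M, the levels were 77.7 CPM in P-I, 110 CPM in P-III and 227 CPM in P-IV (P-IV to P-I 2.92, 1.76 to 5.12), with 10 UMIs in P-III and an interval of P-III to P-I that includes 1 (1.42, 0.584 to 3.24). In cluster 1 they were 37.7, 55.9 and 74.3 CPM, from 7, 23 and 18 UMIs, and the intervals of all 3 ratios included 1.

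The other clusters that were populated in both libraries moved in both directions. Cluster 3 had 33.0 CPM of Mmp12 in steady state and 176 CPM after GM-CSF (5.33-fold, 3.54 to 8.38), and cluster 1 had 0 UMIs and 63.2 CPM, at least 7.28-fold higher against a floor of 3 counts. Cluster 9 had 126 CPM (51.6% of cells) and 60.5 CPM (27.5% of cells), a ratio of 0.481 (0.363 to 0.635). Clusters 10 and 8 had 266 and 101 CPM after GM-CSF, cluster 11, with its neutrophil genes, 213 CPM, and clusters 7, 2 and 12 between 34.3 and 37.6 CPM. Mmp12 was thus found well beyond cluster 0 in the GM-CSF library, at lower levels over whole clusters. Within cluster 10 the levels were 41.5 CPM in P-I (1 UMI), 252 CPM in P-III (5 UMIs) and 907 CPM in P-IV. That P-IV value (645 to 1240) came from 39 UMIs in 20 cells and was above the 521 CPM of P-IV in cluster 0. These cells were shallow, with a median of 2019 UMIs against 6942 for P-IV of cluster 0, and 55% of them had a Mmp12 UMI, against 80.8%.

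Among P-IV cells those assigned to G1 had 426 CPM of Mmp12, those in S 286 CPM and those in G2/M 205 CPM. Phase was not separated from cluster here, and P-IV cells of clusters 0, 8 and 7 had 521, 227 and 103 CPM. In CD115- cells the values were 201, 89.7 and 50.2 CPM, the same order. In P-III they were 215 (176 to 261), 200 (135 to 286) and 37.5 CPM (4 UMIs in G2/M), with G1 and S overlapping. In P-I they were 26.4 (16.3 to 40.4), 70.6 (39.5 to 116) and 33.6 CPM (17.9 to 57.5), lowest in G1, with overlapping intervals and 21, 15 and 13 UMIs.

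Ordering all bundle cells of the GM-CSF library by tag count gave the levels without gates. By quintiles of CD301b count, Mmp12 was 37.6, 53.7, 63.8, 226 and 365 CPM from the lowest to the highest, and by CD11c it went from 14.8 to 320 CPM, by MHC II from 22.4 to 261 CPM and by CD115 from 77.2 to 224 CPM. By Ly6C it was 169, 222, 280, 113 and 32.1 CPM, highest in the middle quintile and lowest at the top. Mmp8 was highest in the highest Ly6C quintile, with 4.22, 0.938, 1.10, 20.3 and 95.4 CPM by Ly6C after GM-CSF, and 1.01, 22.5, 60.1, 110 and 149 CPM in steady state. These quintiles include clusters 11, 14 and 15, which held 559 of the 772 Mmp8 UMIs of the GM-CSF bundle. Steady-state Mmp12 lay in cells with high CD11c, whose highest quintile held 202 of the 204 UMIs. By CD301b it was 41.7, 15.3, 5.99, 6.44 and 6.43 CPM, and by CD115 35.3 CPM in the lowest and 6.42 CPM in the highest quintile. This order was opposite to that of the GM-CSF library, but the quintiles of the 2 libraries covered unlike tag counts. The highest began at 11 counts of CD301b in steady state and 167 after GM-CSF, and at 11 and 78 counts of CD115. Tag counts and UMIs of a cell share its capture efficiency, and the highest quintiles of CD11c and CD301b had medians of 8401.5 and 7135 UMIs per cell against 6232.5 and 5802.5 in the lowest.

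**Figure D4:**
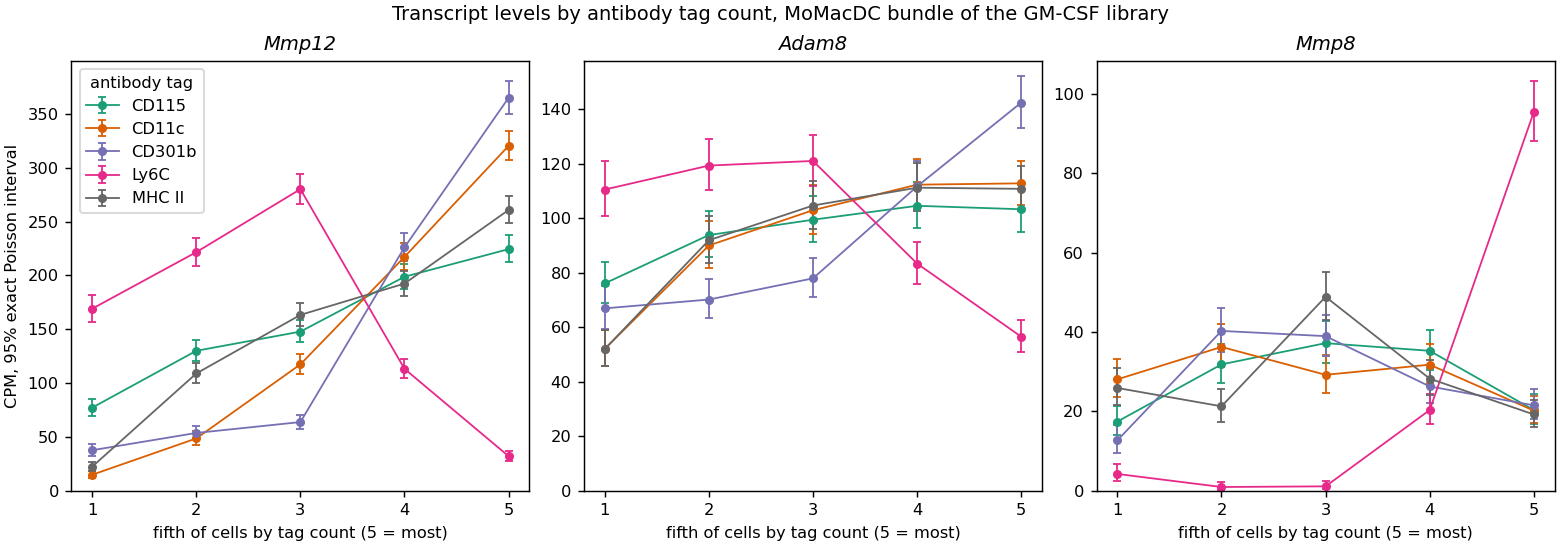
CPM of Mmp12, Adam8 and Mmp8 (vertical axes) in the bundle cells of the GM-CSF library, split into quintiles by the count of each of 5 antibody tags (horizontal axis, lowest to highest), with exact Poisson 95% intervals. Mmp12 went from 37.6 to 365 CPM with CD301b and was lowest, at 32.1 CPM, in the highest quintile of Ly6C.

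Mmp14, the membrane-type activator of pro-MMP2, was sparse, with 75 UMIs in all cells. The bundle had 43 UMIs (2.88 CPM) in steady state and 17 (0.628 CPM) after GM-CSF, a ratio of 0.218 (0.117 to 0.391). Cluster 2 held 72.1% and 70.6% of them, with 31 and 12 UMIs (14.2 and 6.05 CPM). Thinned to 1000 UMIs per cell its ratio was 1.03, but thinning left only 5 and 3 Mmp14 UMIs in the whole bundle, too few to read a ratio. The 8 activated DCs of the steady-state library had 134 CPM from 11 UMIs and the 20 of the GM-CSF library 26.9 CPM from 3 UMIs, too few cells for a comparison. Neutrophils, granulocytes, B cells and T cells had 0 UMIs in both libraries.

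Mmp19, a secreted metalloproteinase, was found mainly in MoMacDC_c1 and, by bundle cluster, in clusters 5 and 6 of the steady-state library. MoMacDC_c1 had 133 UMIs (14 CPM) in steady state and 72 (8.31 CPM) after GM-CSF, a ratio of 0.595. Cluster 5 held 59.3% of the steady-state UMIs of the bundle, at 25.2 CPM against 15.9 CPM after GM-CSF (0.629, 0.344 to 1.08), and cluster 6 had 13.2 and 17.4 CPM. The bundle as a whole went from 9.70 to 4.65 CPM (0.480, 0.375 to 0.613), past the 2-fold limit, whereas clusters 5 and 6 made up 20.7% and 13.9% of bundle cells in steady state and 3.58% and 2.74% after GM-CSF.

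Timp2, the inhibitor that also takes part in the activation of pro-MMP2, was 110 CPM in steady-state neutrophils and 160 CPM after GM-CSF (1.45, 1.2 to 1.78), and 1.1-fold higher once the cells were thinned to equal depth. In granulocytes it was 173 and 231 CPM (1.34, 1.19 to 1.51). The few cells labelled macrophages had the highest levels, 363 CPM (35 UMIs, 25 cells) and 444 CPM (21 UMIs, 22 cells). MoMacDC_c2 had 17.5 and 57.8 CPM (3.29, 2.25 to 5.0), and MoMacDC_c1 42.4 and 50.2 CPM. Cluster 3 had 2 UMIs (2.75 CPM) and 147 UMIs (43.3 CPM), a ratio of 15.7 (4.28 to 131). In T cells Timp2 was 41.3 CPM in steady state (30 UMIs), so the 33.4 CPM of the whole steady-state bundle was no higher than in a cell type outside it. Progenitor DCs had 11.3 and 3.36 CPM. P-I had 61.7, P-III 46.0 and P-IV 55.6 CPM after GM-CSF, with overlapping intervals. The type deposited as cDC2-A had 75.7 and 112 CPM, and its cells carried 6 of 6 markers of natural killer cells, which summed to 19187 and 19832 CPM.

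Timp1 was almost undetected. It had 0 UMIs in the steady-state library and 10 in the GM-CSF library, all in the bundle (0.369 CPM), 7 of them in MoMacDC_c1 and 3 in MoMacDC_c4. Against a floor of 3 counts this was 1.84-fold higher, and the counting interval of the ratio began at 1.24. A count of 0 in the steady-state bundle allows up to 0.201 CPM.

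Adam8 differed in opposite directions in granulocytes and in the bundle. Granulocytes had 546 CPM in steady state (2007 UMIs, 56.6% of cells) and 286 CPM after GM-CSF (691 UMIs, 28.6% of cells), a ratio of 0.524 (0.480 to 0.572) just short of the 2-fold limit. Neutrophils had 259 and 188 CPM, a ratio of 0.726 (0.635 to 0.832). In the bundle it was 32.2 and 95.6 CPM, 2.97-fold higher (2.69 to 3.28), and 17.1 and 92.6 CPM, 5.42-fold higher, without clusters 11, 14 and 15. B and T cells had 25.1 and 28.9 CPM in steady state, close to the whole steady-state bundle and above its level without those clusters, and 7.97 and 0 CPM after GM-CSF, below the GM-CSF bundle.

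Within the bundle the higher Adam8 was found in many clusters. MoMacDC_c1 had 20.6 and 70.4 CPM (3.42, 2.91 to 4.04) and MoMacDC_c2 49.5 and 156 CPM (3.16, 2.52 to 4.01), ratios that were 5.78 and 5.39 without clusters 11, 14 and 15. MoMacDC_c4, whose steady-state cells carried the markers of natural killer cells, had 8.90 CPM from 4 UMIs and 50.9 CPM (5.72, 2.21 to 21.1). Clusters 2, 3, 5 and 6 had between 8.72 and 24.8 CPM in steady state and between 32.4 and 142 CPM after GM-CSF, with ratios of 6.53 (3.99 to 11.3), 5.73 (3.59 to 9.76), 3.52 (2.33 to 5.32) and 2.55 (1.45 to 4.46). Cluster 12 had 56.8 and 54.7 CPM, and progenitor DCs 97.1 and 70.8 CPM, a ratio of 0.729 (0.580 to 0.920) that became 1.05 without clusters 11, 14 and 15. Activated DCs had 195 CPM (16 UMIs, 8 cells) and 412 CPM (46 UMIs, 20 cells). P-I cells had 22.0 and 57.4 CPM (2.61, 1.64 to 4.31), and 10.9 and 47.9 CPM (4.40) without clusters 11, 14 and 15.

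Along the subsets of the GM-CSF library Adam8 was 57.4 CPM in P-I, 115 CPM in P-III and 141 CPM in P-IV. P-III was 2.0-fold above P-I (1.46 to 2.75), only just past the 2-fold limit. Over 9 alternatives this ratio ranged from 1.48, when thinned to 1000 UMIs per cell, to 2.64, without called doublets. P-IV was 1.23-fold above P-III, an interval (0.966 to 1.58) that includes 1, and 2.07-fold above it when thinned. Adam8 had UMIs in 54.8% of the Mmp12-positive and 34.8% of the Mmp12-negative bundle cells of the GM-CSF library, whose medians were 7266 and 6351 UMIs. Timp2 was found in 30.1% and 18.9% of these cells, Mmp8 in 3.6% and 6.28%, and Mmp9 in 5.04% and 5.02%. In steady state Adam8 was found in 42.1% and 12.8% of Mmp12-positive and Mmp12-negative cells, Mmp9 in 29.9% and 11.8%, Mmp8 in 16.8% and 25.6%, and Timp2 in 7.48% and 18.0%, so for Mmp9 and Timp2 the order was not that of the GM-CSF library.

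**Figure D5:**
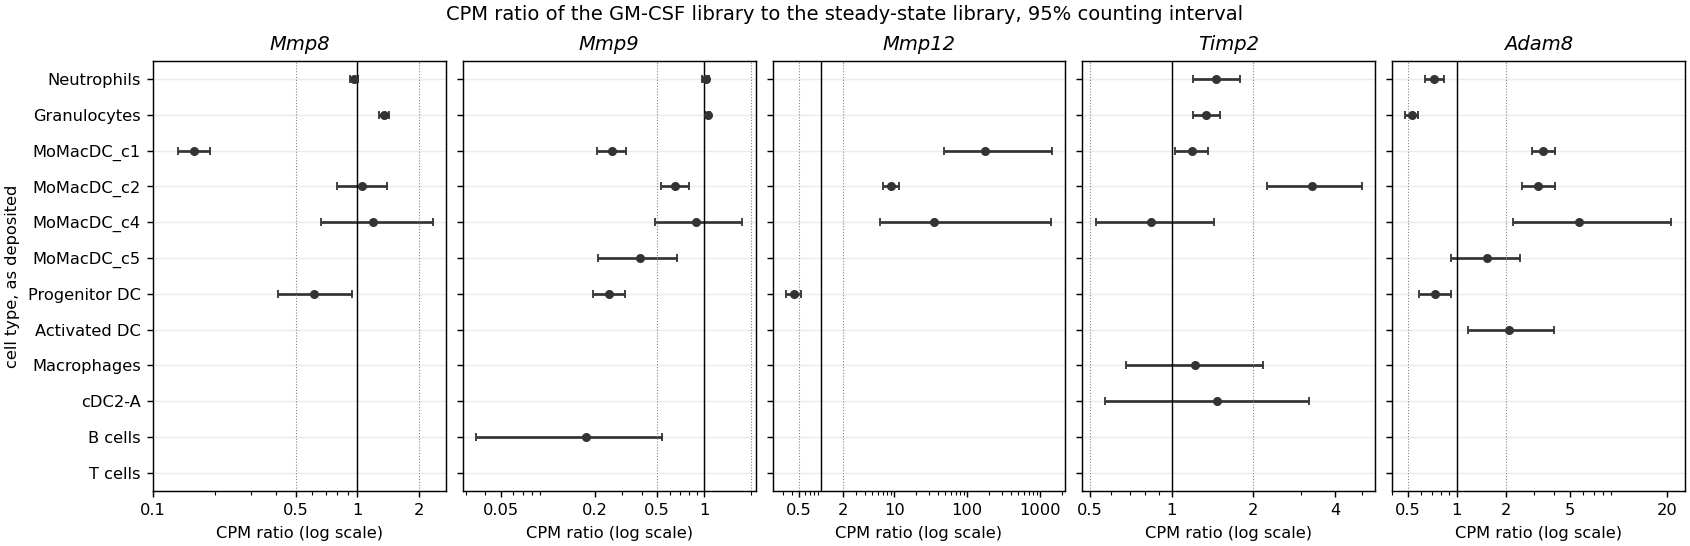
CPM ratio of the GM-CSF to the steady-state library (horizontal axis, log scale) with 95% counting intervals in each deposited cell type, for 5 of the genes, where both libraries together had at least 50 UMIs and neither had 0. Dotted lines mark ratios of 0.5 and 2. Adam8 was 0.524 in granulocytes and 3.42 in MoMacDC_c1, and Mmp12 was 0.421 in progenitor DCs and 8.94 in MoMacDC_c2.

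Set beside all genes, the members were as follows. Between P-III and P-I of the GM-CSF library 3.82% of 5233 genes were apart (1.11% higher and 2.71% lower). Of 5 members with enough UMIs Mmp12 and Adam8 were higher, Adam8 only just past the limit, Mmp8 and Mmp9 lower and Timp2 neither. Mmp12 and Adam8 alone were apart without called doublets or without clusters 11, 14 and 15, and 0 members when thinned to 1000 UMIs per cell, which leaves fewer UMIs to pass the minimum. The median log2 ratio was -0.41 over these members and 0.02 over all genes tested. Between P-IV and P-III 2.93% of 6216 genes were apart (1.91% higher and 1.01% lower), and none of 3 members. Between the libraries 6.1% of 6489 genes were apart in neutrophils (3.62% higher and 2.48% lower) and 10.5% of 6257 in granulocytes (7.29% higher and 3.2% lower), but none of 5 members in either. In the bundle 18.1% of 10860 genes were apart (8.66% higher and 9.46% lower), and of 7 members Mmp12 and Adam8 were higher, Mmp8, Mmp9, Mmp14 and Mmp19 lower, and Timp2 neither.

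Other genes of the system were read from lists. Of 15 other matrix metalloproteinases 9 had a UMI and none reached 50 in all cells, Mmp23 being the highest with 42. Of 20 other ADAM and ADAMTS genes 9 could be read in the bundle and 1 was higher, which is near the 8.66% of all genes. It was Adamdec1, a decysin of macrophages and DCs, at 3.34 and 7.60 CPM. Of 11 other inhibitors 7 could be read in neutrophils and 3 were higher after GM-CSF, beside 3.62% of all genes. All 3 were stefins, the cytosolic inhibitors of cysteine cathepsins: Stfa2 went from 7.33 to 290 CPM, Stfa2l1 from 77.9 to 229 CPM and BC100530 from 1.83 to 497 CPM. In granulocytes 3 of 6 were higher (7.29% of all genes), Stfa2 at 5.17 and 103 CPM, BC100530 at 16.1 and 118 CPM, and Serpinb1a, an inhibitor of neutrophil elastase, at 6.53 and 17.8 CPM. Stfa2, Stfa2l1 and BC100530 are closely related copies, so reads may be shared among them.

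Among 15 activators, partners and surface docks, 14 could be read in the bundle, with 4 higher and 4 lower (8.66% and 9.46% of all genes). Higher were Plau, the urokinase that activates plasminogen, Lcn2, which binds MMP9, and the tetraspanins Cd9 (127 and 295 CPM) and Cd63 (8.43 and 20.3 CPM). Lower were Plaur, the urokinase receptor (135 and 39.6 CPM), Cd44, a dock for MMP9 (713 and 331 CPM), and the integrin chains Itgb2 (518 and 217 CPM) and Itgam (320 and 152 CPM). From P-I to P-III 1 of 10 was lower (2.71% of all genes), Lcn2 at 147 and 13.5 CPM. From P-III to P-IV 1 of 11 was higher (1.91% of all genes), Cd63 at 12.2 and 29.4 CPM. Of 12 neutrophil granule genes, all readable in neutrophils, 1 was lower after GM-CSF (2.48% of all genes), Mpo at 330 and 127 CPM. In granulocytes 4 of 8 were higher (7.29% of all genes), Ltf, Camp, Ngp (23.1 and 417 CPM) and Cybb (82.2 and 256 CPM). From P-I to P-III 4 of 6 were lower (2.71% of all genes), Ltf, Camp, Ngp and Lcn2, where 12 P-I cells belonged to cluster 11 with its neutrophil genes. In the bundle, clusters 11, 14 and 15 included, 11 could be read. Elane, Ltf, Camp, Ngp and Lcn2 were higher after GM-CSF (8.66% of all genes) and Cybb, Fpr1, Fpr2 and Itgam lower (9.46%). The median log2 ratio was 0.67 against -0.06 over all genes tested.

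Over 23 groups of cell type and library with at least 20 cells, the genes whose log2 CPM pattern was most like that of a member were S100a9, Wfdc21 and S100a8 for Mmp8 (Pearson r from 0.92 to 0.94), Chil1, Lrg1 and S100a9 for Mmp9 (0.94 to 0.95), and Crispld2, Retnlg and 9830107B12Rik for Mmp25 (0.91 to 0.98). For Mmp12 they were Bex6 (0.88), Cd209b and Tlr11 (0.83 each). For Mmp19 they were Lamp1, Vps26a and Pkd2 (0.84 to 0.90), and for Adam8 Hlx, 2410131K14Rik and Alas1 (0.86 to 0.89). Between members r was 0.89 for Mmp8 and Mmp9, 0.87 for Mmp8 and Mmp25, and -0.28 for Mmp8 and Mmp12. The groups share 2 libraries and their free RNA, so these values describe the pattern only.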

How the data were processed

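CD11b+ splenocytes were sorted by flow cytometry and profiled with Chromium Single Cell 3′ (v3) reagents and tagged antibodies, in 1 RNA and 1 ADT library per condition. The authors deposited raw counts, UMIs per gene and counts per tag, with Cell Ranger 3.0.2, Seurat 3.6.0 and mm10 named in the submitters' processing notes. The deposited percent of mitochondrial UMIs was used as given by the authors. Cells were kept as deposited. CPM came from UMI sums per group, with exact Poisson intervals. Ratios of CPM carried exact intervals from the binomial share of their counts, and shares Clopper-Pearson 95% intervals. These cover counting error only. The fold rule added 0.5 counts to each sum. Cells were thinned at random to 1000 UMIs (seed 20) for checks at equal depth, leaving out 38 and 578 shallower cells. Scrublet, run per library with exact neighbours in scanpy, called 141 (2.92%) and 186 (2.73%) cells doublets, which were kept. Ratio intervals and fold calls were tested on simulated data. All 9 members are named. For each, the 3 genes most like it among genes with at least 200 UMIs are named, except for Timp2 and for Mmp14 and Timp1, which were below that minimum, and list genes past 2-fold with at least 50 UMIs are counted, with values given for most of those named. The members and lists were chosen with earlier results of these data known. Alternatives covered depth, averaging, doublets, a 10% mitochondrial limit, clusters left out, fold and UMI limits, and pooling of the libraries. Gene positions came from GENCODE and promoters from RefSeq (GRCm38.p6). Python 3.11.15, numpy 2.4.6, pandas 2.3.3, scipy 1.17.1, scanpy 1.11.5, anndata 0.12.19 and matplotlib 3.10.9 were used. The 2 deposited RNA tables were the same in shared cells. Bulk RNA-seq, RNA velocity and protein sequences were not analysed here. The genes most like Timp2 and the summed classical monocyte markers are not reported here.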

Additional observations from a re-analysis of the deposited data

Results flagged for a closer look

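Mmp12 was 175-fold higher in MoMacDC_c1 of the GM-CSF library than in steady state (2 UMIs there), and lower, with a ratio of 0.421, in progenitor DCs. Adam8 was 5.72-fold higher in MoMacDC_c4 and lower, with a ratio of 0.524, in granulocytes. Both genes drew attention because they differed between the libraries in opposite directions in different cell types. The steady-state MoMacDC_c4 value came from 4 UMIs in cells that carried markers of natural killer cells (11788 CPM, against 16.6 CPM after GM-CSF), whose part in the ratio was not tested. With 1 library per condition, neither difference between cell types was tested.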

How the results depend on the processing

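The Mmp12 ratio of P-III to P-I (5.31) was 7.59 without called doublets, 8.84 without the cycling clusters 7, 8 and 12, 8.53 with both libraries pooled and 2.26 without cluster 0. That of P-IV to P-III (1.95) was 2.37 without cluster 0 and 2.46 without the highest cell of each subset. Leaving out cluster 0, the highest cell, or clusters 11, 14 and 15 for member counts was chosen after seeing the data. The neutrophil Mmp9 ratio (1.02) was 1.09 thinned to 1000 UMIs. The difference in Mmp8 share (28.0 points) was 30.3 thinned and 31.7 as a mean over cells. Of the 4 members apart between P-III and P-I, 0 were counted with at least 200 UMIs and 0 thinned, both of which leave fewer UMIs to pass the minimum, and 2 (Mmp12 and Adam8) without called doublets or without clusters 11, 14 and 15. At 1.5-fold 1 member (Mmp12) was apart between P-IV and P-III, and 2 (Mmp25 and Adam8) between granulocytes of the libraries. Of 6 in the bundle, 2 (Mmp12 and Mmp14) were apart at 3-fold and 3 (Mmp8, Mmp12 and Adam8) thinned. Mmp14 in cluster 2 (0.43) turned to 1.03 when thinned, where only 5 and 3 Mmp14 UMIs were left in the whole bundle. For ratios other than those of Mmp12 along the subsets and of Mmp8 and Mmp9 in neutrophils, 71 alternatives moved by less than the counting interval. A further 9 moved by more in the same direction, and 1 turned. For the ratios set aside here, the Mmp8 share and the member counts together, 51 alternatives were taken as unchanged and 17 as moved. Where no construction is named, the cause was not tested. No paired analysis was possible because each condition had 1 library. Animals within a condition could not be compared, so the difference between animals is unknown, and free RNA and doublets touch low values of Mmp8, Mmp9 and Adam8.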
